A study of Mus musculus with 12 samples.

Results

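The subject is H3K4me3 at the loci of Meis1, Sox11 and Pcdh7, a trio named here as embryonic genes. The mark was read as peaks overlapping 1 mm9 window per gene, on chromosome 11 for Meis1, chromosome 12 for Sox11 and chromosome 5 for Pcdh7. Merging the peaks of all 8 lists gave 24352 regions, of which 4 touched these windows: a long region in each, and a shorter side region in the Meis1 window. The windows were chosen from earlier results of the same data, on the contrast of adult with embryonic epithelium, or of ISC with E14.5 epithelium for Meis1. The lower coverage in adult cells is therefore given as a description with no test. The windows carry the gene names of their definition. No gene annotation of mm9 was used, so that neither the position of a start site inside a peak nor the markers of the sorted cell types were checked.

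Chromatin immunoprecipitation with an H3K4me3 antibody and sequencing was done on mouse small-intestinal epithelium of a mixed C57BL/6 CD1 background, with 2 libraries for each of 4 groups. E12.5 and E14.5 are embryonic epithelium, sorted as live EpCAM+ cells without CD31 or CD45. ISC are adult stem cells sorted for a high level of EGFP driven from the Lgr5 locus, and enterocytes are adult EpCAM+ cells without CD31 or CD45. Both adult groups came from males of 2 months that carry the Lgr5EGFP-Cre-ERT allele. No genotype or sex is given in the labels for the embryos, so stage, that allele and sex cannot be told apart. A single input library was the control for both libraries of each group, and it differed between groups, so stage and input cannot be told apart either.

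H3K4me3 is placed on nucleosomes around gene starts by complexes of the SET1 and MLL families, and CpG-rich promoters carry it in most cell types. A longer stretch of the mark is often seen at genes that define a cell's identity. Meis1 is a homeodomain transcription factor of the TALE class that binds DNA together with Pbx and Hox proteins and acts in limb, heart and blood development. Sox11 is a transcription factor with an HMG box that belongs to the SoxC group with Sox4 and Sox12 and is known mainly from progenitor and maturing cells of the embryo. Pcdh7 is a protocadherin, a membrane protein of cell adhesion. In the adult small intestine, Lgr5-expressing stem cells at the crypt base give rise to the absorptive enterocytes of the villus.

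The promoters of these genes are shown because the mark is linked to CpG-rich starts. The sequences are those of RefSeq in the build GRCm38.p6, the 250 bases before the listed start, read 5′ to 3′ on the gene's strand, with each CpG in capitals. They could not be placed on the mm9 peaks.
Meis1: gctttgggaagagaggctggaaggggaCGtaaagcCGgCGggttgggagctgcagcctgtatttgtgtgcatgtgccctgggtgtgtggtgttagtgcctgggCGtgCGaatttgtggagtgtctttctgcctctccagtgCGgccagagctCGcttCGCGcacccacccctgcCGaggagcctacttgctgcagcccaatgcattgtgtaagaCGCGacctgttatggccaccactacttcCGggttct
Sox11: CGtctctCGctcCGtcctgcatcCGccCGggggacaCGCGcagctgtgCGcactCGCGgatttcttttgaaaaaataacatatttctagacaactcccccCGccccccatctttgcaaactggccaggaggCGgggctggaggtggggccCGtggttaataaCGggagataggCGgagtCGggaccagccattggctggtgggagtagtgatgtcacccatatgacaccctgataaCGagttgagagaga
Pcdh7: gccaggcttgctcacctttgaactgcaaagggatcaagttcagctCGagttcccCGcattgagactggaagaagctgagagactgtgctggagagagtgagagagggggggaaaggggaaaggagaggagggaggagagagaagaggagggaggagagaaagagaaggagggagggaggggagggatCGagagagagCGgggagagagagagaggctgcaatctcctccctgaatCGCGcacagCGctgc

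The 3 promoters differed in their CpG content. Sox11 had 17 CpG, an observed over expected ratio of 0.81 that was above the ratio of 81.8% of the 32841 promoters in the table. Meis1 had 13 CpG and a ratio of 0.595, above 65.7% of promoters. Pcdh7 had 7 CpG and a ratio of 0.419, above 53.7%, against a median of 0.374 and 6 CpG over all promoters. The G and C content was alike, at 59.6% for Meis1, 58% for Sox11 and 58.4% for Pcdh7. Of 13 relatives listed (Meis, Pknox, Pbx, SoxC and protocadherin genes), 7 had an entry, with ratios between 0.497 for Meis2 and 1.01 for Sox12. Motifs were searched on both strands. The letters CCAAT, held by 33.9% of all promoters, were found 1 time in Meis1, 54 bases before the start, and 1 time in Sox11, 60 bases before it. GGGCGG, held by 32.8%, was found 2 times in Sox11. TATAAA (12.4% of promoters), TGACAG (15.9%) and ACAAAG (16.5%) were in none of the 3 windows of 250 bases.

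All 3 loci carried a domain of several kilobases in every embryonic library and at most short peaks in adult ones. The map of peaks shows a single wide block per embryonic library, broken in 1 library at Pcdh7, and small fragments inside the same span in the adult libraries. In adult lists, 7 peaks were left in the 3 windows, between 213 and 697 bp long. By −log10 q, where a higher value means a stronger peak over the input, they were between 67.1% and 99% of the way down their own lists. As a share of the embryonic mean, adult libraries covered 4.6% of the length at Meis1, 3.5% at Sox11 and 2.49% at Pcdh7. At each of the 3 long regions, all 4 adult libraries lay below all 4 embryonic ones. That holds for 4.88% of all 17679 regions called in at least 2 libraries, but the windows were chosen for it. In sorted cells, a smaller share of cells with the mark and less of the mark per cell cannot be told apart.

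**Figure D1:**
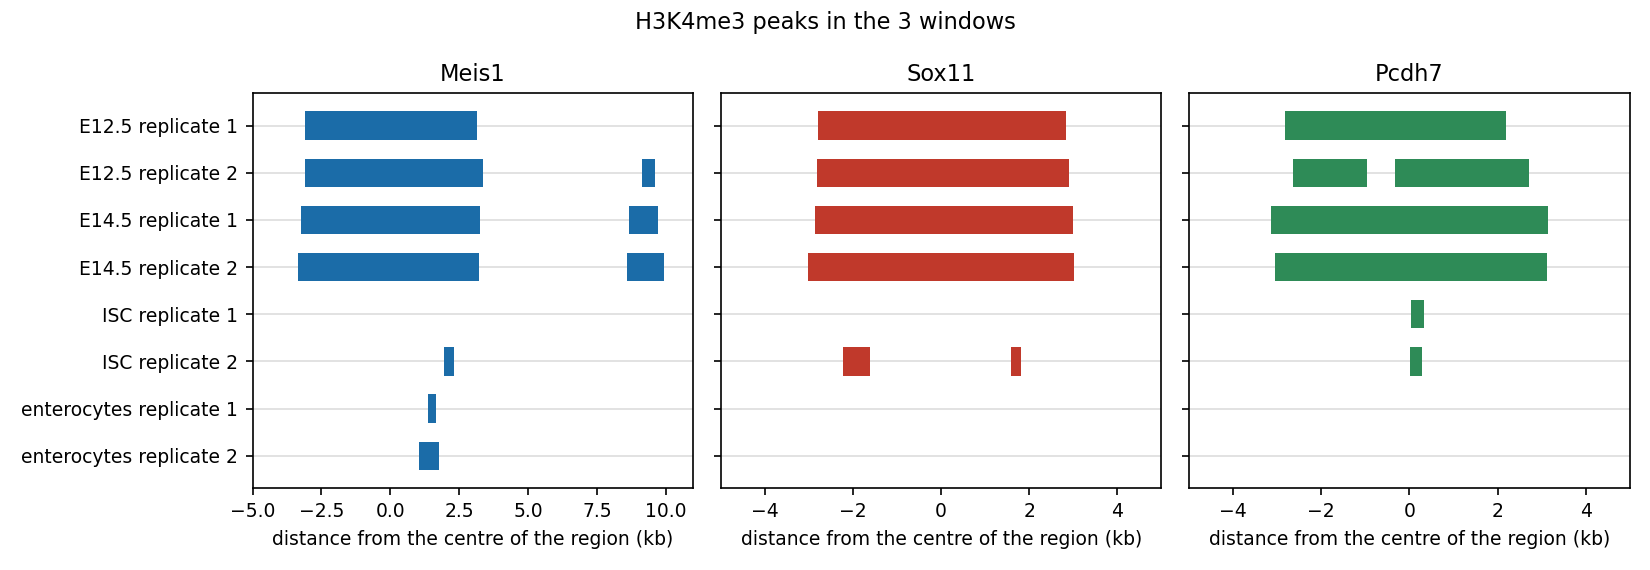
H3K4me3 peaks of the 8 libraries (rows, from E12.5 at the top to enterocytes at the bottom) in the windows of Meis1, Sox11 and Pcdh7, with the distance from the centre of each long region in kb on the x axis and bars drawn to scale. The 4 embryonic libraries have long blocks, and the 7 adult peaks are 213 to 697 bp long.

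At Meis1, the long region ran from 18914382 to 18921110 and was covered over 6239 and 6444 bp in the E12.5 libraries (replicates 1 and 2), 6521 and 6579 bp in the E14.5 libraries, 0 and 357 bp in the ISC libraries, and 263 and 697 bp in the enterocyte libraries. Embryonic libraries were close to each other and covered at least 92.7% of the region, and the adult library with most covered 10.4% of it. The Meis1 window also held a side region 5217 bp away, from 18926328 to 18927667. That side region had 0 and 484 bp under peaks in E12.5 libraries and 1043 and 1340 bp in E14.5 libraries, and 0 bp in all 4 adult libraries. With both regions, the mean length covered in the window was 6583.5 bp ± 487 for E12.5, 7741.5 bp ± 251 for E14.5, 178.5 bp ± 252 for ISC and 480 bp ± 307 for enterocytes (SD, n = 2). The order of the groups from high to low was thus E14.5, E12.5, enterocytes and ISC, and the values of the adult pair overlapped.

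The adult Meis1 peaks lay past the midpoint of the domain, on the side of the higher coordinates, but not at the same place in both cell types. The peak of enterocyte replicate 1, from 18919129 to 18919391, lay wholly inside that of replicate 2, from 18918803 to 18919499. The peak of ISC replicate 2, from 18919711 to 18920067, was 211 bp beyond the nearer of them. The peak of enterocyte replicate 2 had a −log10 q of 6.75, a rank of 11414 among 17007 peaks of its list. The remaining adult Meis1 peaks were near the foot of their lists, at 96.9% of the way down by −log10 q in enterocyte replicate 1 and 92.8% in ISC replicate 2.

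At Sox11, the region from 28022837 to 28028886 was covered over 5629 and 5717 bp in E12.5 libraries, 5842 and 6050 bp in E14.5 libraries, 0 and 813 bp in ISC libraries and 0 bp in both enterocyte libraries. The embryonic values were close to each other, with a mean of 5946 bp ± 147 at E14.5 and of 5673 bp ± 62.2 for E12.5 (SD, n = 2). The whole adult signal came from ISC replicate 2. It had a peak of 600 bp from 28023640 to 28024239 and one of 213 bp from 28027458 to 28027670, 3218 bp apart. They lay towards opposite ends of the embryonic domain, with none over its centre. Their −log10 q values of 1.33 and 2.17 placed them 99% and 92% of the way down that list.

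At Pcdh7, the region from 58105386 to 58111683 was covered over 5028 and 4713 bp in E12.5 libraries, 6298 and 6176 bp in E14.5 libraries, 281 and 272 bp in ISC libraries and 0 bp in both enterocyte libraries. Pcdh7 was the locus where both ISC libraries had a peak. Those peaks, from 58108578 to 58108858 and from 58108554 to 58108825, shared 248 bp. They lay 3192 and 3168 bp from the lower end of a region of 6298 bp, near its centre. In E12.5 replicate 2 the domain was split into peaks of 1685 and 3028 bp with 644 bp between them. Both ISC peaks fell inside the longer of these, which spans 58108217 to 58111244.

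**Figure D2:**
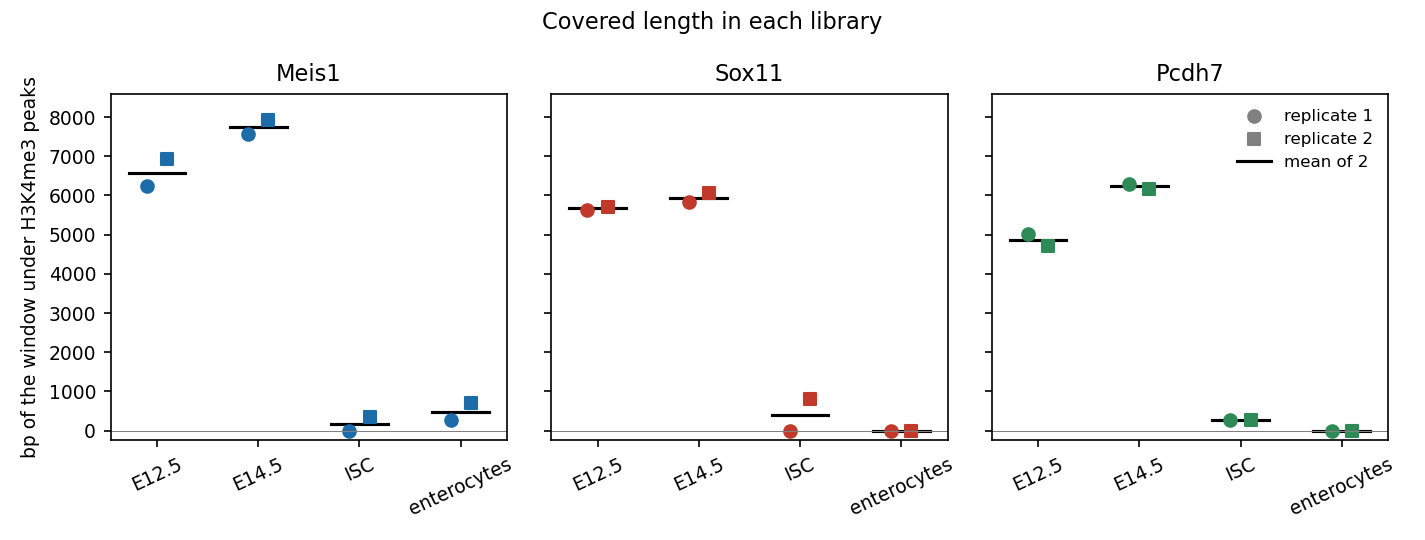
Length in bp of the Meis1, Sox11 and Pcdh7 windows under H3K4me3 peaks (y axis) in each library, by group (x axis, from E12.5 to enterocytes), with circles for replicate 1, squares for replicate 2 and a line at the mean of 2. Adult libraries lie between 0 and 813 bp and embryonic libraries between 4713 and 7919 bp.

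Depth moved with these values in part. The libraries had 15053166 and 22696869 tags for E12.5, 43259380 and 22718162 for E14.5, 13355462 and 25547814 for ISC, and 12821255 and 22137910 for enterocytes. The shallower ISC library had no peak at Sox11 or Meis1, and the ISC peaks at both loci came from the deeper one. ISC replicate 2 had 25547814 tags and covered 357, 813 and 272 bp at Meis1, Sox11 and Pcdh7, and E12.5 replicate 1 had 15053166 tags and covered 6239, 5629 and 5028 bp. The part of depth in the result was not tested. Total peak length was 15562321 to 20885165 bp in adult lists and 11528423 to 24275691 bp in embryonic lists.

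Other regions of the same chromosomes gave a measure that the choice of windows did not use. The nearest regions called in all 8 libraries were 1050897 and 891380 bp from the Meis1 window on its lower and higher side, 859838 and 1283679 bp from the Sox11 window, and 3706959 and 5037789 bp from the Pcdh7 window. Adult libraries covered 91.9% and 109% of the embryonic mean length at those of Meis1. At those of Sox11 they covered 136% and 69.5%, and at those of Pcdh7 87.2% and 152%. The lower region of Pcdh7, for example, was covered over 1449 bp ± 333 in adult and 1661 bp ± 194 in embryonic libraries (SD, n = 4 each). These 6 regions were picked for being called in every library, so that their presence in adult lists is fixed. A region lost from an adult list could not be picked, so their lengths describe only regions kept in every list.

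**Figure D3:**
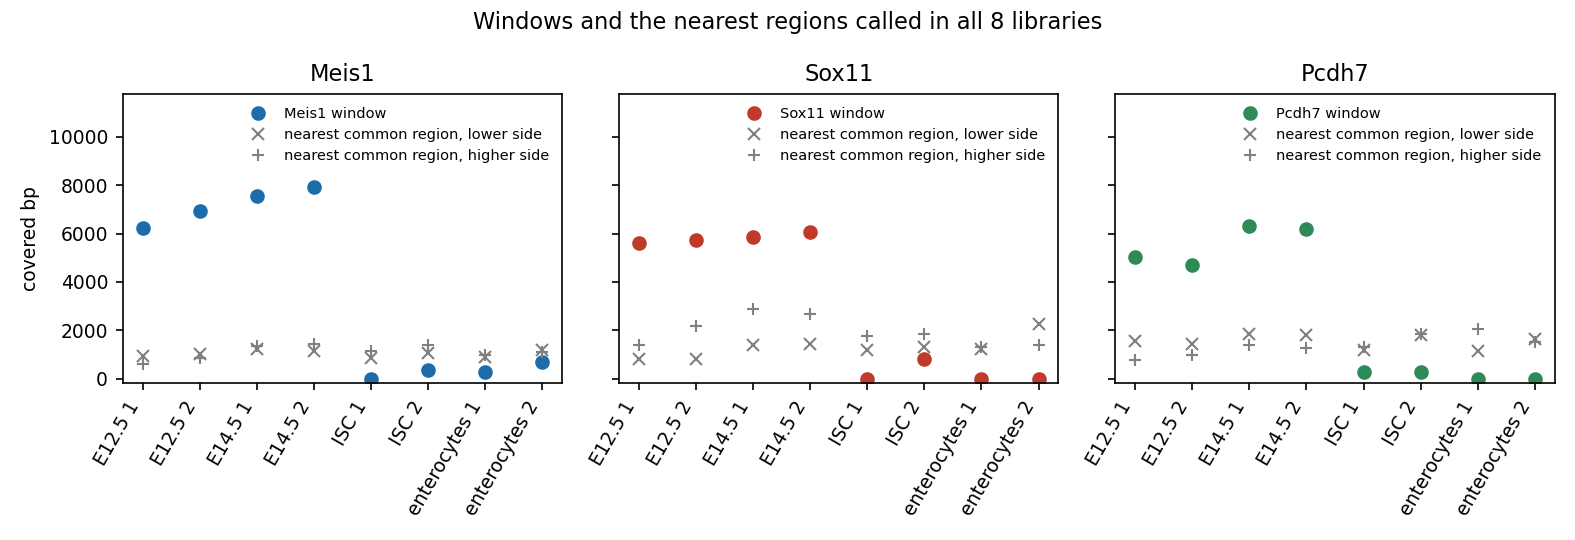
Covered bp (y axis) in each of the 8 libraries (x axis) for the 3 windows (filled circles) and, in grey, for the nearest region called in all 8 libraries on the lower side (x) and on the higher side (+) of each. The windows have at most 813 bp in adult libraries and at least 4713 bp in embryonic ones, and the grey values stay between 602 and 2869 bp.

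The Pcdh7 and Sox11 domains stood far from other regions called in at least 2 libraries, and the Meis1 domain had the side region of its own window nearby. Within 500000 bp of the Pcdh7 window no library had a peak, and the nearest other region called in at least 2 libraries was 3714345 bp from the long region. No other of the 17679 such regions had so wide a gap to its nearest neighbour, where the median gap was 24594 bp. A peak called in enterocyte replicate 2 alone lay nearer, 653823 bp from the Pcdh7 window. The Sox11 region was 275552 bp from the nearest region called in at least 2 libraries, a gap reached by 3.71% of regions. That neighbour, from 27746893 to 27747285, was called over 299 and 385 bp at E14.5 and in no other library. A peak of 159 bp in E12.5 replicate 2 alone lay 62045 bp from the Sox11 window. The long Meis1 region had its side region as nearest neighbour, and 84.4% of regions had a gap at least as wide. Outside the Meis1 window, the nearest region called in at least 2 libraries lay 125656 bp from it, from 18776866 to 18779344. That region had 1354 and 1021 bp under peaks in E12.5 libraries and 2063 and 2431 bp in E14.5 libraries. It had 0 bp in both ISC libraries, and 0 and 700 bp in the enterocyte libraries. A further one, from 18771156 to 18772017, had 0 and 472 bp in E12.5 libraries and 849 and 682 bp in E14.5 libraries, and was in no adult list. In the RefSeq gene table of GRCm38.p6, the protein-coding neighbours are Etaa1 and Spred2 for Meis1, Cmpk2 and Dcdc2c for Sox11, and Stim2 and G6pd2 for Pcdh7.

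The embryonic domains were among the widest of their lists, and differed in strength. By width, the Meis1 peak ranked 32 of 16225 and 30 of 17658 at E14.5, and 5 of 11111 and 7 of 13693 at E12.5. The Sox11 peak ranked 58 and 47 at E14.5, and 8 and 13 at E12.5, by the same measure. The Pcdh7 peak ranked 40 and 42 at E14.5, and 11 in E12.5 replicate 1. In E12.5 replicate 2 its pieces ranked 2049 and 232. Every embryonic domain in one piece was within the widest 0.357% of its list.

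By −log10 q the order of the loci was different. Sox11 was in the strongest 14.1% and 11.4% of peaks at E14.5, and 22.6% and 12.7% at E12.5. Meis1 was 50% and 50.5% of the way down at E14.5, and 68.8% and 59.2% at E12.5. Pcdh7 was 67.3% and 63% of the way down at E14.5, 82.7% in E12.5 replicate 1, and 70.6% and 61% for its pieces in E12.5 replicate 2. By fold enrichment over the input, Sox11 was in the top 10.6% and 9.81% at E14.5, and 23.6% and 14.3% at E12.5. Thus the Sox11 domain was wide and strong, and the Meis1 and Pcdh7 domains were wide at middling to low strength.

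Long peaks of low rank were a minority in these lists. Among peaks of at least 4000 bp, the share below the median rank of the list by −log10 q was 9.79% of 286 and 8.94% of 302 at E14.5, and 29.3% of 41 and 17.5% of 57 at E12.5. Pcdh7 was 5 and 7 from the weakest end of these long peaks at E14.5, and 2 from it in E12.5 replicate 1. Meis1 was 29 and 26 from the weakest end at E14.5, and 6 from it in both E12.5 libraries. Sox11 ranked 78 and 65 from the strongest end at E14.5, and 15 and 10 from it at E12.5. Each of these values ranks peaks within a single list. MACS values of different lists were compared only through the common threshold of a −log10 q of at least 10, and depth and input differ between those lists.

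**Figure D4:**
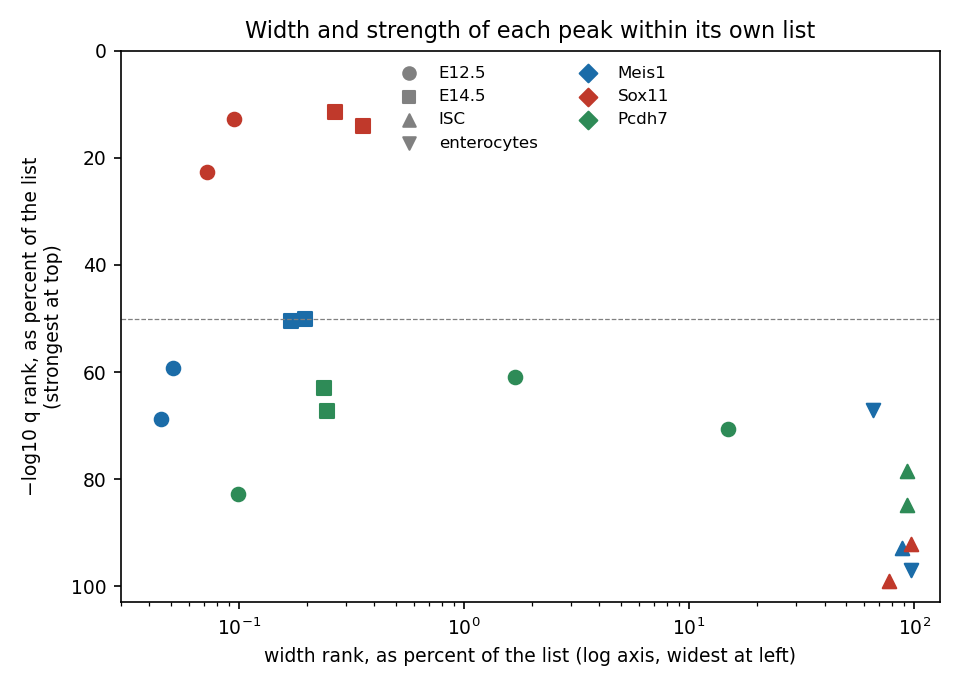
Rank of each peak of the long regions by width (x axis, percent of its list, log axis, widest at left) and by −log10 q (y axis, percent of its list, strongest at top), with colours for genes and shapes for groups. Adult peaks are at 67.1% or further down by −log10 q, and embryonic Sox11 peaks at 11.4% to 22.6%.

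E14.5 was set against E12.5 to ask how the domains differ between embryonic stages. In bp, both E14.5 libraries lay above both E12.5 libraries at all 3 long regions, as did 85.7% of all regions tested, so this count is near the background. Coverage was therefore scaled so that regions called in all 8 libraries had equal medians, and tested on log2(covered bp + 200) with limma across all 17679 regions with Benjamini-Hochberg adjustment. Of those, 17.1% were called, 15.2% as longer at E14.5 and 1.86% as shorter. Of the 4 regions of the windows, 0 were called, and 1, Pcdh7, was below the threshold of 0.05 without adjustment. The log2 change was -0.64 ± 0.49 at Meis1 (limma adjusted p = 0.444), -0.61 ± 0.68 at Sox11 (0.608) and -0.33 ± 0.13 at Pcdh7 (0.154), and 1.53 ± 0.61 at the Meis1 side region (0.162; SE). Each SE pools the spread of all 4 groups, so at Meis1 and Sox11 it also holds that of the adult libraries. At Sox11, for example, the ISC libraries had 0 and 813 bp, against 5629 to 6050 bp in embryonic ones. The missing calls at Meis1 and Sox11 thus do not rest on the spread between embryonic libraries alone. The sign at the 3 long regions turned without scaling, to 0.045, 0.065 and 0.34, and only the last of these passed (limma adjusted p = 0.0298). The median change of all regions was 0.19 with this scaling and 0.74 without, so that the long regions lay below the median of all regions in either case. The side region passed as well without scaling (1.90, limma adjusted p = 0.0412) and without E12.5 replicate 2 (2.54, adjusted p = 0.00133). In lists of equal number, Meis1 and Sox11 passed with a negative change after scaling (-0.62 and -0.60, limma adjusted p = 0.0215 and 0.0312). In bp both stayed longer at E14.5 in these lists. Meis1 had 6521 and 6579 bp at E14.5 against 6239 and 6444 bp at E12.5, and Sox11 5842 and 6050 bp against 5629 and 5717 bp. There, adult coverage at both was 0 bp, and the SE was 0.096 at Meis1 and 0.103 at Sox11. Groups at 0 bp in both libraries have no spread of their own, so these adjusted p may be too small. Leaving out ISC replicate 1 or replicate 2 changes the pooled spread and no embryonic value. The change at Sox11 was -0.61 in both fits, but its SE was 0.093 and 0.1, against 0.68 with all libraries. Whether Sox11 is called thus depends on which ISC libraries enter the fit. Pcdh7 did not pass in lists of equal number (-2.65, limma adjusted p = 0.378). Its peak of 6176 bp in E14.5 replicate 2 ranked 11120 by −log10 q, just outside the 11111 peaks kept. That library thus counted 0 bp, against 6298 bp in E14.5 replicate 1, and the change reflects this cut. With peaks of a −log10 q of at least 10, Meis1 and Pcdh7 passed in the opposite direction, as longer at E14.5 (4.74 and 4.67, limma adjusted p = 1.79e-05 and 1.6e-05), since no E12.5 peak of either reaches that threshold. The E12.5 and adult groups were at 0 bp at both loci there, so these adjusted p may be too small as well. Sox11 did not pass in that setting (2.06, limma adjusted p = 0.387). The E14.5 libraries also entered the choice of the windows, so these tests are not wholly independent of it.

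The ends of the domains differed most between the embryonic stages at Pcdh7. Measured inward from the outermost end in any library, the Pcdh7 domain began 46 bp ± 65.1 at E14.5 and 411 bp ± 129 at E12.5 from the lower end, and stopped 15 bp ± 21.2 at E14.5 and 694.5 bp ± 361 at E12.5 from the higher end (SD, n = 2). At Sox11 these distances were 84.5 bp ± 120 and 227.5 bp ± 14.8 at the lower end, and 19.5 bp ± 27.6 and 149.5 bp ± 47.4 at the higher end, in the same order. At Meis1 the lower end was at 59 bp ± 83.4 and 280 bp ± 7.07, and the higher end at 120 bp ± 42.4 and 107.5 bp ± 152. Over the 4 embryonic libraries, the ends spread over at most 285 bp at Meis1 and 238 bp at Sox11, and over 502 and 950 bp at the lower and higher ends of Pcdh7. Ends of called peaks depend on depth, and the E14.5 lists covered more of the genome in all, so their part in these shifts was not tested.

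Enterocytes were set against ISC to ask how the remaining adult peaks differ with differentiation. Of all regions, 7.52% were called by limma, 4.35% as longer in enterocytes and 3.17% as shorter. This balance of 769 longer to 561 shorter regions turned when enterocyte replicate 2 was left out (401 and 1710), when ISC replicate 1 was (561 and 673), and with a minimum of 4 libraries per region (307 and 348). The libraries of both groups also entered the choice of the windows, so these tests are not wholly independent of it. Pcdh7 was called, with 0 bp in both enterocyte libraries against 281 and 272 bp in ISC (limma adjusted p = 0.00466). A group at 0 bp in both libraries has no spread of its own, so this adjusted p may be too small, and the call was lost in lists of equal number (adjusted p = 0.91), after quantile normalization (0.136), with 1000 bp as the pseudocount (0.101) and with peaks of a −log10 q of at least 10 (1), where no adult Pcdh7 peak is left. It was kept with each library left out (adjusted p between 0.00766 and 0.04). Meis1 had 263 and 697 bp in enterocytes and 0 and 357 bp in ISC. Its log2 change was 0.99 ± 0.49 (SE, limma adjusted p = 0.374), and it passed with quantile normalization (1.17, adjusted p = 0.00351). Sox11, with 0 bp in enterocytes and 0 and 813 bp in ISC, was not called (adjusted p = 0.485). It was called without ISC replicate 1 (limma adjusted p = 0.00567), a fit with a single ISC library at 813 bp that is assumed to vary like the other groups.

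Set among all regions, the 3 loci were at the far end of the range. By the fitted change of adult against embryonic coverage, Sox11 was in place 2, Pcdh7 in place 3 and Meis1 in place 10 from the lowest of 17679 regions. This contrast chose the windows, so the places are a description, and with 0 bp in some adult groups the sizes of the changes depend on the pseudocount. Of all regions, 31.5% were called in this contrast, 13.7% as longer in adult libraries and 17.8% as shorter. The balance of 2423 longer to 3148 shorter regions turned with quantile normalization (2545 and 2375), with a minimum of 4 libraries per region (1647 and 1376), in lists of equal number (2219 and 1980), and without E14.5 replicate 1 (1166 and 717) or replicate 2 (1217 and 722). A total of 39 regions were covered over at least 4000 bp in each of the 4 embryonic libraries, and adult libraries covered a median of 91.4% of their embryonic length. In 31 of the 39, all 4 adult libraries had a peak. In 6 regions, or 15.4%, adult coverage was under 10% of the embryonic length, and these 6 include Pcdh7, Sox11 and Meis1.

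**Figure D5:**
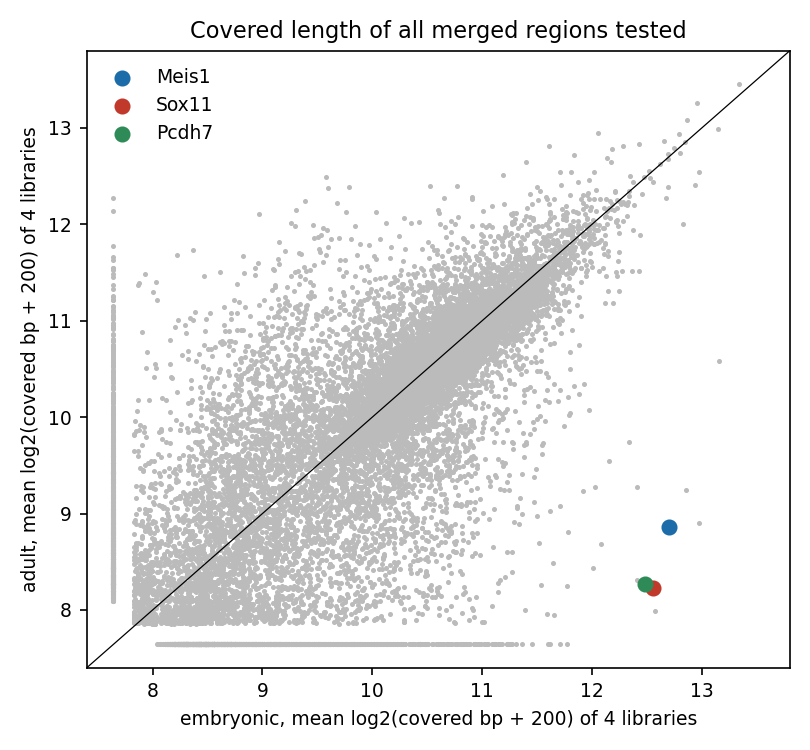
Mean log2(covered bp + 200) over 4 adult libraries (y axis) against the mean over 4 embryonic libraries (x axis) for 17679 merged regions (grey), without scaling, with the line of equal values. The long regions of Meis1, Sox11 and Pcdh7 lie at the lower right, with little coverage in adult libraries and long coverage in embryonic ones.

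The regions most like each locus over the 8 libraries were found by the Euclidean distance of scaled log2(covered bp + 200), and are named by mm9 position. Closest to Sox11, at a distance of 0.575, was a region on chromosome 9 from 114467907 to 114474109. It had 4604 and 4323 bp under peaks in E12.5 libraries, 6087 and 6190 bp in E14.5 libraries, 0 and 1059 bp in ISC libraries and 0 bp in both enterocyte libraries. Pcdh7 was closest to Sox11 itself (1.73), and Sox11 had Pcdh7 as its next region after one on chromosome 11 from 11934363 to 11938650 (1.48). Closest to Meis1, at 1.97, was a region on chromosome 7 from 6679772 to 6685352, with 3286 and 2766 bp under peaks in E12.5 libraries, 4891 and 5581 bp in E14.5 libraries, 0 and 1007 bp in ISC libraries, and 482 and 701 bp in enterocyte libraries. The next were on chromosome 7 from 149840171 to 149851336 (2.02) and on chromosome 11 from 95862240 to 95869647 (2.09).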

How the data were processed

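The authors deposited 1 peak list per H3K4me3 library, 8 in all, made from each library alone. MACS 2.0.10.20130712 called broad peaks against an input at a q-value threshold of 0.01, per the file headers, and each peak has a length in bp, a pileup signal, a −log10 p-value, a −log10 q-value and a fold enrichment (a ratio over the input). Per the submitters' processing notes, Bowtie 1.1.2, SAMtools 1.2 and the build mm9 were used. Each list also holds broad peaks down to a −log10 q between 1.01 and 1.09. Per the labels' protocols, 250000 cells were sorted and chromatin was sheared to 350 to 700 bp.

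Peaks that overlapped or touched were merged, and the bp under each library's peaks were counted per region and per window (at least 1 bp of overlap). A limma 3.58.1 fit covered every region present in 2 or more libraries (R 4.3.3, trended prior, 4 groups fitted together, two-sided, threshold 0.05, pseudocount 200 bp), after division by a factor per library between 0.72 and 1.28. The fit was tested on simulated data with 1 common spread for all regions. That spread was below the log2 replicate SD of Meis1 (0.571), its side region (0.699) and Sox11 (0.788), and above that of Pcdh7 (0.124). The simulation therefore does not show how the fit behaves at these loci. Reads per region are not in the lists. Absence from a list means that a region was not called at that depth, which does not show that it lacks the mark. Duplicates are called biological in the design text, and p-values measure the spread between them. Replicate numbers come from the titles, and nothing in the labels says that a number marks a shared animal or batch. The members, lists, tests and alternatives were chosen with earlier results of these data known. Named were the 3 genes, the 3 regions most like each by Euclidean distance, and the nearest peaks beside each window. The alternatives were other pseudocounts, scalings, minimum numbers of libraries, peak thresholds and window widths, a replicate block and each library left out. The files of the 4 input samples were not used here.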

Additional observations from a re-analysis of the deposited data

How the results depend on the processing

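Coverage of the windows changed with stricter peaks. With peaks of a −log10 q of at least 10, mean covered length was 0 bp in adult and 3275 bp in embryonic libraries at Meis1, and the embryonic means were 4402.25 bp at Sox11 and 3118.5 bp at Pcdh7, since weak E12.5 domains drop out. In lists of equal number (the 11111 strongest peaks of each) adult Meis1 coverage was 0 bp and the embryonic Pcdh7 mean 4009.75 bp. That mean holds 0 bp for E14.5 replicate 2, whose Pcdh7 peak of 6176 bp fell just outside the list. With each library left out, adult means ranged over 207 to 439 bp at Meis1, 0 to 271 bp at Sox11 and 90.7 to 184 bp at Pcdh7, and embryonic means over 6910 to 7470 bp, 5729 to 5870 bp and 5306 to 5834 bp. The adult Sox11 value of 0 bp is that without ISC replicate 2, the lowest adult Meis1 value that without enterocyte replicate 2, and the lowest adult Pcdh7 value that without ISC replicate 1. With peaks of at least 500 bp, adult Pcdh7 coverage was 0 bp. Windows widened by 20000 bp gave the same means.

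For E14.5 against E12.5, the changes at Meis1, Sox11 and Pcdh7 turned positive without scaling (0.045, 0.065 and 0.34) and with a −log10 q of at least 10 (4.74, 2.06 and 4.67), in that setting because the E12.5 peaks of Meis1 and Pcdh7, and that of Sox11 in replicate 1, fell under the threshold. The 3018 regions called became 8118 without scaling, 673 with quantile normalization, 1040 among regions called in at least 4 libraries, 790 in lists of equal number, and 166 to 4376 with a library left out. The lowest counts, 194 and 166, were those without E14.5 replicate 1 and replicate 2. A group with 1 library left is assumed to vary like the others. For enterocytes against ISC, the 1330 regions became 655 among regions called in at least 4 libraries, 169 with a −log10 q of at least 10, and 577 to 2111 with a library left out. For adult against embryonic, the 5571 regions became 3023, 2072 and 1883 to 6060 under the same settings. In the enterocyte comparison, 577 and 2111 are the counts without enterocyte replicate 1 and replicate 2, and 596 and 615 those without E14.5 replicate 1 and replicate 2; adult against embryonic gave 1883 and 1939 without the same E14.5 libraries. Fewer regions entered the fit in several of these settings, and the cause of the shifts was not tested.

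With replicate number as a block (replicate block), 3052, 1195 and 5590 regions were called in these 3 comparisons, and no call at the windows changed. Replicate differences of the groups correlated at 0.05 between E14.5 and E12.5 and 0.23 between enterocytes and ISC over 8903 regions. For pairs of an embryonic with an adult group, the correlation was between 0.076 (E14.5 and ISC) and 0.187 (E12.5 and enterocytes).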
